A study of Mus musculus with 7 samples.

Results

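Immediate early response genes were examined in the left lungs of mice lacking Gata5. The 10 genes were Fos, Fosb, Jun, Junb, Egr1, Atf3, Ier2, Nr4a1, Dusp1 and Btg2. Their members on the array were all probe sets that the platform annotation assigns to 1 of these genes and to no other gene. This gave 12 probe sets of 45037 that are not controls, with a pair each for Jun and Btg2 and 1 for each other gene. The study profiled lungs of 8-week-old mice on Affymetrix mouse expression arrays, 1 array per mouse. There were 3 mice labelled Gata5 KO and 4 labelled Wild Type (WT), and the labels describe each sample as a biological replicate. The labels name no treatment. The part of Gata5 that was deleted, the cells that carry the deletion and the strain were not stated in the labels.

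Immediate early genes are transcribed within minutes of a stimulus from promoters that are already poised, without new protein synthesis. Growth factors, stretch, wounding, hypoxia and tissue handling all switch them on, through kinase cascades that act on the serum response factor SRF with its ETS partners and on the cyclic AMP response element binding protein CREB. Their messages are short-lived, so a level read from a whole organ also depends on the minutes around its removal. The labels do not state the times between death, removal and freezing.

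All 6 markers of lung tissue were bright on every array, from a log2 level of 10.15 to 14.61, so the tissue label was borne out. Heart muscle transcripts were present in both groups, with Myh6 between 11.86 and 12.66 and Actc1 between 11.81 and 12.82. The thymus marker Rag1 stood at 3.58 to 3.74 and the cartilage marker Col2a1 at 4.96 to 5.48. Other markers of neighbouring tissues were brighter. For thymus, Dntt stood at 5.72 to 6.18 and Ccl25 at 6.20 to 6.57. For trachea and oesophagus, Krt5 stood at 6.33 to 6.93 and Krt4 at 6.02 to 6.40. The adipose marker Adipoq ran from 5.36 to 7.78. Whether RNA of these tissues was present was not tested. WT replicate 4 differed in Xist, the RNA of the silenced X chromosome of female cells, with 12.72 against 6.31 to 6.48 on the other arrays. By this RNA it read as female and all other arrays, including every KO array, as male. No fit held sex as a covariate. Without this array 1974 probe sets were called, against 4456 with it. Leaving out any 1 of the other arrays also lowered the count, to between 2174 and 4251. The part of sex in this was not tested. Measures of RNA quality also differed between the groups. The 3′ beta-actin control probe set exceeded the 5′ one by 4.74 to 5.39 on the KO arrays and by 3.88 to 4.31 on the WT arrays. The highest value was on KO replicate 2. The 3′ minus middle difference of Gapdh was 3.85 to 4.31 on the KO arrays and 3.33 to 3.68 on the WT arrays. Neither measure overlapped between the groups, so effects of genotype and of RNA quality cannot be told apart.

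Btg2 and 1 of the 2 probe sets of Jun fell in KO lungs, and no member rose. Btg2, an antiproliferative protein that speeds the removal of poly(A) tails, was 1.66-fold lower at one probe set and 1.24-fold lower at the other. Jun, the basic leucine zipper partner of Fos in the AP-1 complex, was 1.55-fold lower at one probe set. Fos and Egr1 stood higher on average in KO lungs, by log2 0.55 and 0.81, but neither passed. Egr1, Fos, Atf3, Fosb and Dusp1 were in the top 10% of all probe sets by their variation between mice of one genotype, and no probe set of Btg2 or Jun was.

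In the comparison of KO with WT lungs, 3 of the 12 probe sets were called lower, 0 were called higher and 9 did not pass (limma, adjusted p under 0.05 over all 45037 probe sets). The members' share was 25%, against a background of 9.89% of all probe sets called in either direction and 6.37% called lower. Of the 3, a pair belong to one gene. With each gene read only at its brightest probe set, 1 of 10 members was called, close to the 10.5% of all genes read that way. The groups did not overlap at 4 of the 12 probe sets, against 23.4% of all probe sets. The median log2 change was -0.08 over the 12 probe sets and 0.043 over all. In an organ, fewer cells that make a transcript and less of it per cell cannot be told apart. Over all probe sets 1588 were higher and 2868 lower, 35.6% higher. That share was 46.5% after a further quantile normalization and 24.1% after centring each array on its median.

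**Figure D1:**
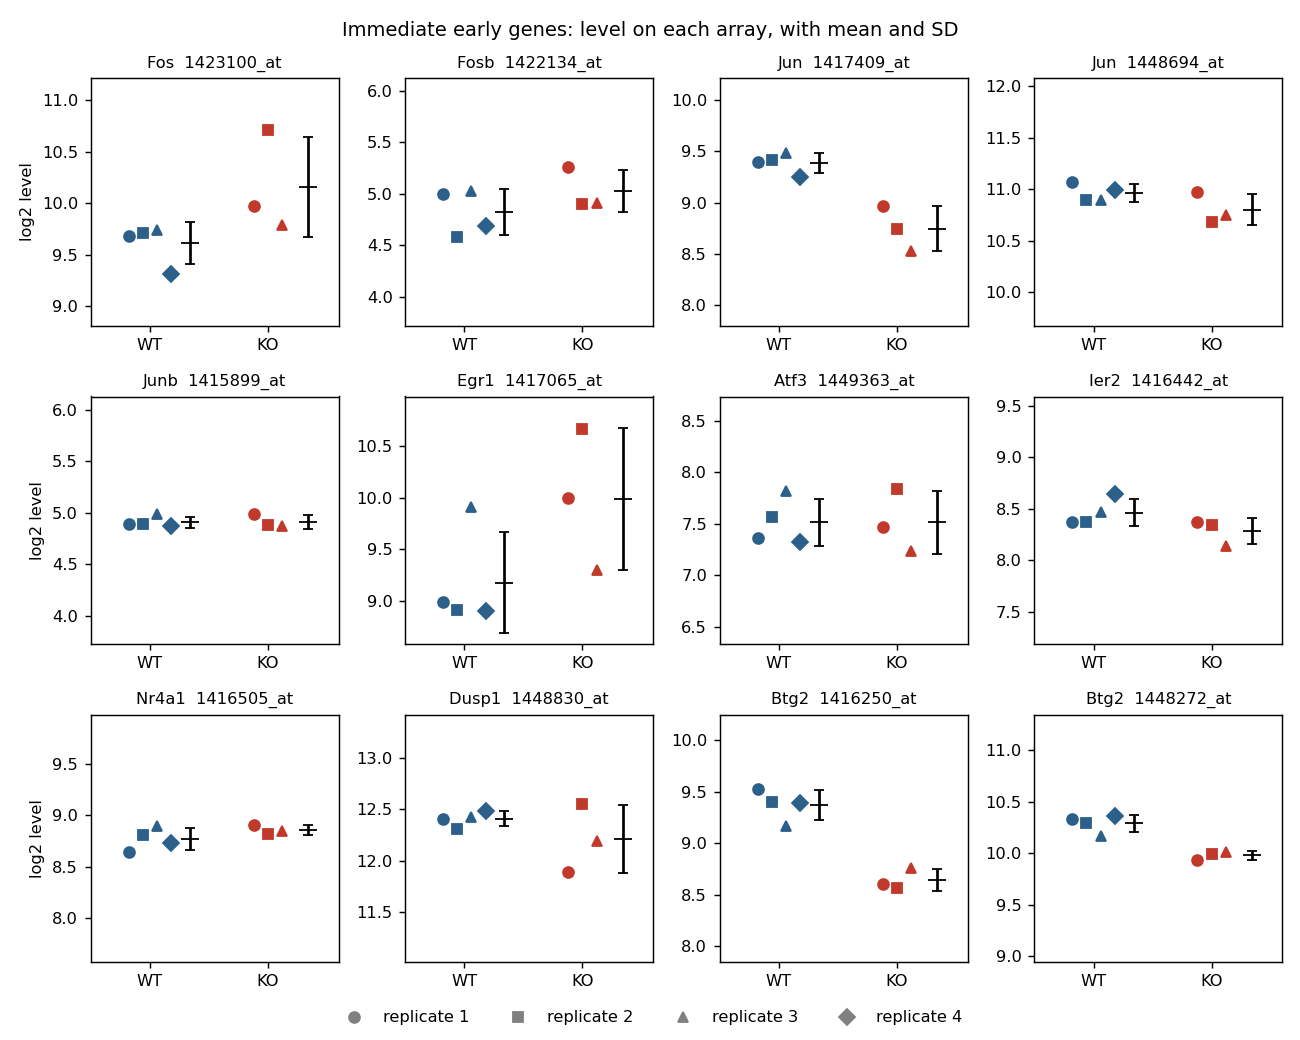
Log2 level of each of the 12 probe sets on the 4 WT arrays (blue) and the 3 KO arrays (red), with marker shapes for the replicate numbers and black bars for the group mean and SD; each panel spans the same number of log2 units. The KO points lie below all WT points at both Btg2 probe sets and at Jun 1417409_at, and Egr1 has the widest scatter, with WT replicate 3 at 9.91 among WT arrays at 8.90 to 8.99.

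Btg2 was read by a pair of probe sets, and the groups were separate at both. At 1416250_at the KO arrays stood at 8.60, 8.57 and 8.76 and the WT arrays at 9.53, 9.40, 9.17 and 9.39. Every KO lung was below every WT lung, with means of 8.64 ± 0.10 (SD, n = 3) and 9.37 ± 0.15 (SD, n = 4). The log2 change was -0.73, with a 95% interval of -0.94 to -0.52 (limma adjusted p = 0.00534). At 1448272_at the KO arrays stood at 9.93, 9.99 and 10.01 and the WT arrays at 10.33, 10.29, 10.17 and 10.36. The gap was smaller there but again without overlap, and the log2 change was -0.31, with an interval of -0.45 to -0.17 (limma adjusted p = 0.0206).

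The call at 1416250_at held whichever array was left out, whereas that at 1448272_at was lost without KO replicate 1, WT replicate 1 or WT replicate 4 (limma adjusted p = 0.0532, 0.0578 and 0.0588) and after a further quantile normalization (-0.21, adjusted p = 0.0709). With the beta-actin difference as a covariate neither passed, at log2 changes of -0.62 and -0.28 (adjusted p = 0.199 and 0.306). That covariate did not overlap between the groups, so this fit cannot tell RNA quality from genotype.

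Jun was also read by a pair of probe sets, which gave different sizes. At 1417409_at the KO arrays stood at 8.97, 8.74 and 8.53 and the WT arrays at 9.39, 9.41, 9.48 and 9.25. The WT lungs lay within 0.23 of each other and all KO lungs lay below them. The log2 change was -0.64, with an interval of -0.87 to -0.40 (limma adjusted p = 0.011). At 1448694_at the KO arrays stood at 10.97, 10.68 and 10.75 and the WT arrays at 11.07, 10.89, 10.89 and 10.99. KO replicate 1 fell among the WT arrays, and the log2 change of -0.16, with an interval of -0.35 to 0.03, did not pass (adjusted p = 0.233). The difference between the 2 probe sets was not tested. The call at 1417409_at held whichever array was left out, with a log2 change of -0.75 to -0.53, and it was lost with the beta-actin difference as a covariate, at -0.69 (adjusted p = 0.205).

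**Figure D2:**
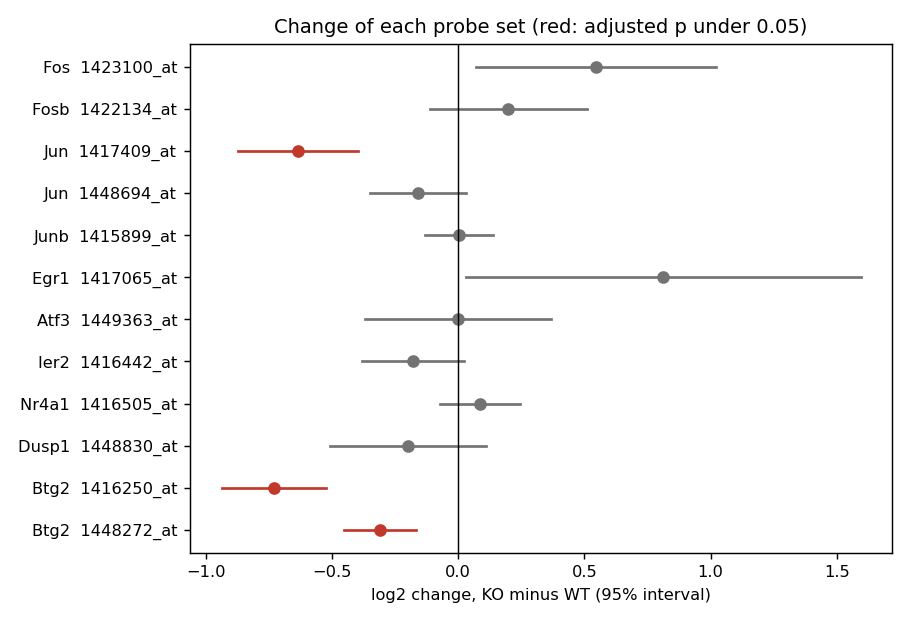
Log2 change (KO minus WT) of each probe set with its 95% interval from the limma fit; red marks an adjusted p under 0.05. The 3 red intervals, for both Btg2 probe sets and Jun 1417409_at, lie wholly below 0, and the Egr1 interval, from 0.03 to 1.59, is the widest.

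Among the cell markers, 2 passed the test, and both were lower on the KO arrays. Over all genes read at their brightest probe set, 10.5% were called in either direction and 6.52% lower. The marker count was not tested against these shares. Pecam1, an adhesion molecule of endothelium, stood at 7.08 to 7.67 on the KO arrays and 8.33 to 8.89 on the WT arrays (log2 change -1.22, limma adjusted p = 0.00669). The 2 other endothelial markers did not pass, with Cdh5 at -0.15 and Cldn5 at -0.42, and the monocyte and macrophage enzyme Lyz2 fell (-0.43, adjusted p = 0.0346). The 3 other leukocyte markers did not pass and had positive signs, with Ptprc at 0.09, Cd3e at 0.18 and Cd79a at 0.31. The surfactant gene Sftpb was at -0.74 with groups that did not overlap and did not pass (adjusted p = 0.0869). Their part in the changes of Btg2 and Jun was not tested.

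The promoters of both called genes, and of Dusp1 and Fos for comparison, are shown because CREB acts on early genes through a known element that some of them hold. In the table of RefSeq promoters of the mouse assembly GRCm38.p6 used here, 8 of the 10 members were matched, all but Ier2 and Egr1. The 250 bases before the annotated start were searched on both strands for 5 motifs. The first was the full cyclic AMP response element TGACGTCA. Its core TGACG, which lies inside the full element on both strands, was counted separately. A search for the TATA box used the letters TATAAA. The CCAAT box was searched by the letters of its name. For the site of GATA factors, the family of Gata5, only the letters AGATAA were searched, and other forms of that site were not. The stretches are chr1:134079156-134079405 on the minus strand for Btg2, chr4:95052223-95052472 on the minus strand for Jun, chr17:26508473-26508722 on the minus strand for Dusp1 and chr12:85473640-85473889 on the plus strand for Fos. Each is written 5′ to 3′ in the direction of the gene, with matches to the searched motifs in capitals.
Btg2: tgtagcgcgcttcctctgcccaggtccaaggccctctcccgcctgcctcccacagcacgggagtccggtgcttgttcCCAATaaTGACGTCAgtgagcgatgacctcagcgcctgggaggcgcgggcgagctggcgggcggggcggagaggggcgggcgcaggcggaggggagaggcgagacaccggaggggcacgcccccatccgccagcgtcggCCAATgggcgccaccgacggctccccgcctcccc
Jun: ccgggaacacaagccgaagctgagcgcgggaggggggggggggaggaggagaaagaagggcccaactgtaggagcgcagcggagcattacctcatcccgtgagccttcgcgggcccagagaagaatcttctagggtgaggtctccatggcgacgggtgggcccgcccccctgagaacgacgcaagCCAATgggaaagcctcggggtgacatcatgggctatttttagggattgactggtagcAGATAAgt
Dusp1: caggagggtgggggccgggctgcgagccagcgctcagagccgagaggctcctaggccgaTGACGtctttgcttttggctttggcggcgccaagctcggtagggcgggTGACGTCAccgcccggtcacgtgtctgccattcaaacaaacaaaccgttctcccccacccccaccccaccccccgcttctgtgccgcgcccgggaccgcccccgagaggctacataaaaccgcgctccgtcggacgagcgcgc
Fos: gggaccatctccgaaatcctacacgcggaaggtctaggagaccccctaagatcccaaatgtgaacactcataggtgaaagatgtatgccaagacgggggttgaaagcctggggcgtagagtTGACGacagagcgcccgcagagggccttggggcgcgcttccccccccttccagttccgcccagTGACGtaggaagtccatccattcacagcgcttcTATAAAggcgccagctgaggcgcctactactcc

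The full element was present before Btg2, from position -166 to -159 counted from the start, and before Dusp1, from -143 to -136. It occurred in 2 of the 8 members and in 1.55% of all 32851 promoters of the same length. The core TGACG was present in 7 of the 8 members, with Jun the exception, against 17.8% of all promoters. Fos carried it at -129 and at -66, with TATAAA at -33. Jun carried CCAAT at -65 and AGATAA at -8. The letters AGATAA stood in 1 of the 8 members against 9.99% of all promoters. Other forms of the GATA site were not searched, so this is no count of GATA sites. Btg2 fell while Dusp1, with the same element, did not pass. A match of letters is a description and no measure of binding.

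Fos, Fosb, Egr1 and Atf3 encode transcription factors of the early response. Fos, which needs a Jun partner to bind DNA, stood at 9.97, 10.71 and 9.79 on the KO arrays and at 9.68, 9.71, 9.74 and 9.31 on the WT arrays. All KO arrays were above all WT arrays, but KO replicate 3 was above the highest WT array by only a small margin, and KO replicate 2 set the KO mean apart. The log2 change was 0.55, with an interval of 0.07 to 1.02 (limma adjusted p = 0.128). Without KO replicate 2 it was 0.27 (adjusted p = 0.215). With the beta-actin difference as a covariate the sign turned, to -0.31 (adjusted p = 0.555).

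Egr1 encodes a zinc-finger factor induced through SRF. Its KO arrays stood at 10, 10.67 and 9.30 and its WT arrays at 8.99, 8.91, 9.91 and 8.90. WT replicate 3 was close to KO replicate 1 and above KO replicate 3, so the groups overlapped. The log2 change of 0.81, with an interval of 0.03 to 1.59, did not pass (limma adjusted p = 0.158). Leaving out WT replicate 3 gave 1.06 (adjusted p = 0.0883), leaving out KO replicate 3 gave 1.16 (0.0886) and leaving out KO replicate 2 gave 0.47 (0.355). Either RNA quality covariate turned its sign, to -0.45 with beta-actin and -0.46 with Gapdh (adjusted p = 0.649 and 0.555).

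Atf3, a stress-induced repressor of the ATF and CREB family, stood at 7.47, 7.84 and 7.23 on the KO arrays and at 7.36, 7.56, 7.82 and 7.32 on the WT arrays. The 2 highest values came from KO replicate 2 and WT replicate 3, and the group means of 7.51 and 7.52 were nearly equal. The 95% interval of the log2 change ran from -0.37 to 0.37. With the RNA quality covariates the change was -0.51 for beta-actin and -0.55 for Gapdh, and neither passed (limma adjusted p = 0.362 and 0.245). Fosb, a close relative of Fos, was dim, under the log2 level of 5.47 below which 40% of all probe sets lie. It stood at 5.26, 4.90 and 4.91 on the KO arrays and at 5, 4.58, 5.03 and 4.69 on the WT arrays, with a log2 change of 0.20 (adjusted p = 0.349).

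The remaining transcription regulators were steadier. Junb, an AP-1 member that can oppose Jun, was read by 1 dim probe set, at 4.87 to 4.99 on all 7 arrays, so these arrays give little information on it. Nr4a1, an orphan nuclear receptor, stood at 8.91, 8.82 and 8.85 on the KO arrays and at 8.65, 8.81, 8.90 and 8.73 on the WT arrays. The KO arrays sat at the upper end of the WT range, and the log2 change of 0.09, with an interval of -0.07 to 0.25, did not pass (limma adjusted p = 0.417). Ier2, a nuclear protein of the early response, stood at 8.37, 8.34 and 8.14 on the KO arrays and at 8.37, 8.37, 8.47 and 8.64 on the WT arrays. No KO array exceeded the lowest WT value, which KO replicate 1 equalled, and the log2 change of -0.18 did not pass (adjusted p = 0.21).

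Dusp1 encodes a phosphatase that switches off the MAP kinases p38 and JNK and so ends the response. Its KO arrays stood at 11.89, 12.55 and 12.19 and its WT arrays at 12.41, 12.31, 12.43 and 12.48. The WT lungs lay within 0.17 of each other, whereas the KO lungs spanned 0.66 and held both the lowest and the highest value of the 7. The log2 change of -0.20, with an interval of -0.51 to 0.11, did not pass (limma adjusted p = 0.35). Leaving out KO replicate 1 gave -0.04 (adjusted p = 0.844), and leaving out KO replicate 2 gave -0.37 (0.0561). The covariates made it larger, at -0.68 with beta-actin and -0.65 with Gapdh, without passing (adjusted p = 0.196 and 0.167). Those fits called only 0 and 13 of all 45037 probe sets. The unadjusted limma p of Dusp1 was 0.0121 and 0.00767 in them, against 0.181 without a covariate. Neither covariate overlapped between the groups, so these fits cannot tell RNA quality from genotype.

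The variation between mice of one genotype was then set against that of all probe sets, as the SD around the group means. This SD was 0.58 for Egr1, which put it at the 99.7th percentile of all probe sets, and 0.35 for Fos, at the 98.6th. Atf3 followed at 0.26 (the 96.3rd percentile), with Fosb and Dusp1 at 0.22 each (the 93rd). Btg2 stood at 0.13 and 0.07, Jun at 0.16 and 0.12, Ier2 at 0.13, Nr4a1 at 0.09 and Junb at 0.06. The median was 0.145 over the 12 probe sets, 0.103 over all probe sets and 0.114 over those above the level of 5.47. When all probe sets were put into 20 bins by mean level, Egr1, Fos, Fosb and Dusp1 exceeded the 95th percentile of their bin and Atf3 stood at its 92.4th. The same SD enters the test of each probe set, and the 5 members with the larger spread were among the 9 that did not pass.

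**Figure D3:**
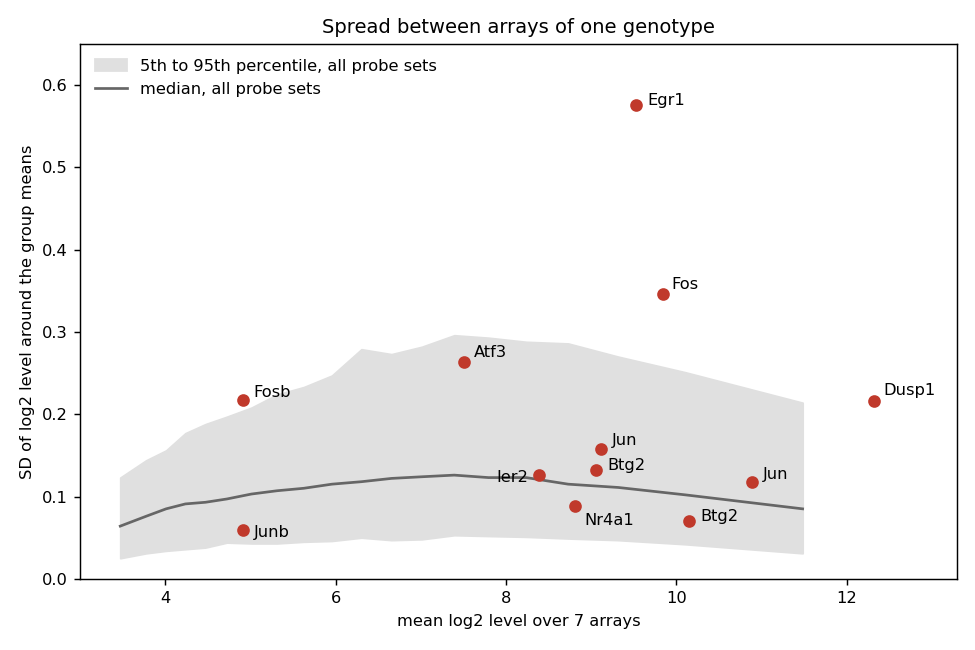
SD of the log2 level around the group means against the mean log2 level of each of the 12 probe sets (red), over the median (line) and the 5th to 95th percentile (grey) of all probe sets in 20 bins of level. Egr1 at 0.58 and Fos at 0.35 lie above the grey band, and Btg2, Jun, Ier2, Nr4a1 and Junb lie inside it.

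The arrays that deviated were partly the same for Fos, Egr1 and Atf3. KO replicate 2 exceeded its group mean by 0.55 for Fos, 0.68 for Egr1 and 0.33 for Atf3, and KO replicate 3 lay below it by values of -0.37, -0.69 and -0.28. Among WT lungs, replicate 3 stood above its group mean by 0.73 for Egr1 and 0.30 for Atf3, but by only 0.13 for Fos. Dusp1 was also above its group mean on KO replicate 2, by 0.34, and was below it on KO replicate 1, at -0.32. KO replicate 2 had the largest beta-actin difference of the 7 arrays, 5.39, and WT replicate 3 one of 4.27, within the WT range. In the 3′ minus middle difference of Gapdh both arrays were highest in their group, with 4.31 for KO replicate 2 against 3.85 and 3.88, and 3.68 for WT replicate 3 against 3.33, 3.35 and 3.51. The part of RNA quality or of handling at collection, which the labels do not describe, in these deviations was not tested.

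**Figure D4:**
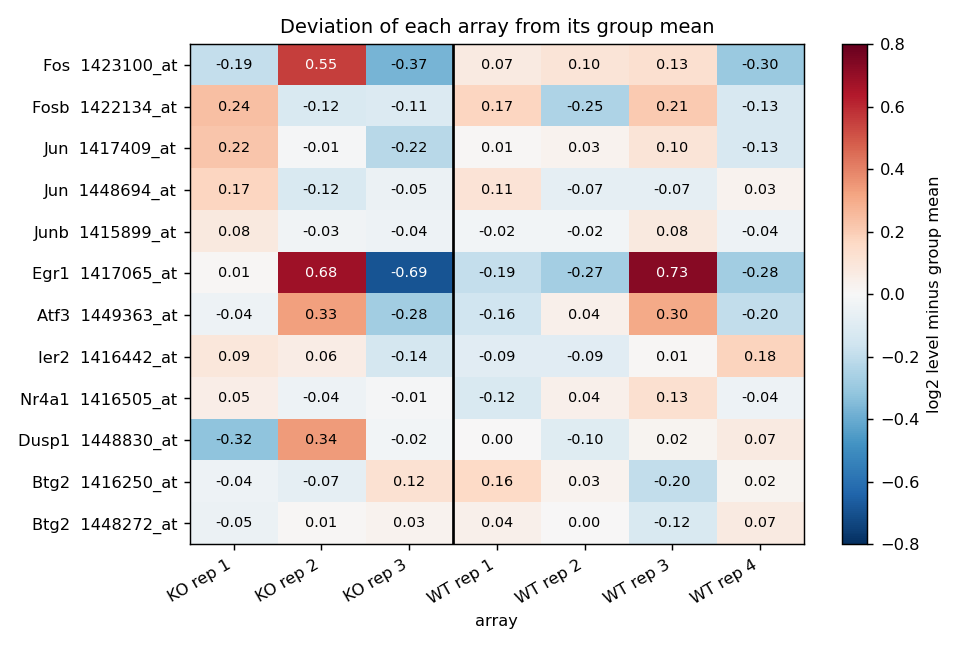
Log2 level of each probe set on each array minus the mean of its group (red above, blue below), KO arrays left of the line and WT arrays right of it. KO replicate 2 is high for Fos (0.55), Egr1 (0.68) and Atf3 (0.33), and WT replicate 3 is high for Egr1 (0.73) and Atf3 (0.30).

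Correlations of these deviations were computed for all 45 pairs of the 10 genes over the 7 arrays, each gene at its brightest probe set. Egr1 and Atf3 had a Pearson r of 0.94 and a Spearman rho of 0.86 (exact permutation p = 0.0208 and 0.0417 over the 144 orders within the groups). Fos and Atf3 had an r of 0.85 and a rho of 0.96 (exact permutation p = 0.0347 and 0.0139), and Fos and Egr1 an r of 0.77 and a rho of 0.82 (exact permutation p = 0.0972 and 0.0764). Without the 2 arrays farthest from the median of Egr1, and with the groups centred again, r was 0.65 for Egr1 and Atf3. For Fos the 2 farthest arrays were KO replicates 2 and 3. Only 1 KO array was then left, which centring sets to 0. The remaining r values of 0.66 with Atf3 and 0.47 with Egr1 therefore rest on the WT arrays alone. Btg2 ran against Junb (r = -0.90, rho = -0.77, exact permutation p = 0.0139 and 0.0278), whose probe set was dim, and against Nr4a1 (r = -0.86, rho = -0.93, exact permutation p = 0.0486 and 0.0347), whose probe set was not. Without the 2 arrays farthest from the median of Junb, or of Nr4a1, these r values were -0.83 and -0.91. After Benjamini-Hochberg adjustment over the 45 pairs the lowest p was 0.469. The smallest p that 144 orders can give is 0.00694, so a single pair could reach no lower than 0.312 after adjustment, and 7 pairs would have had to lie at that smallest p for any to pass. Of the 45 r values 27 were above 0, with a median of 0.11. They rest on 7 arrays and include the dim probe sets of Fosb and Junb, so they cannot settle whether the 10 genes share a pattern.

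Outside the 10 members, the genes whose deviations over the 7 arrays were most like the members' mean deviation were Mars1 (r = 0.998), Gtf2e1 (0.984), Dnajc2 (0.984), Pttg1ip (0.983) and Wsb2 (0.979), the highest among all genes above the level of 5.47. None of these 5 belongs to the related lists below. That level held 13285 genes, members included, so r values this high over 7 arrays can arise from the search alone. The members' mean was 0.17, -0.17 and 0.14 on KO replicate 2, KO replicate 3 and WT replicate 3. Egr1, with the largest spread, was at 0.68, -0.69 and 0.73 there and weighs most in that mean. The r values carry no test.

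Genes around the members were taken from 5 lists, of which 111 of 122 genes could be matched, each read at its brightest probe set. Of the 111, 13 fell, 0 rose and 98 did not pass, a share of 11.7% against 10.5% of all genes called in either direction and 6.52% called lower. The median log2 change was -0.11, against 0.038 over all genes. Of the 98 that did not pass at their brightest probe set, 13 had another probe set that passed, lower in 11 genes and higher in 3. The 13 kept a negative sign under quantile normalization, median centring and cyclic loess, but not all kept their call. Under quantile normalization 9 genes were called lower and 1 higher, and Dusp6, Atf2, Mapkapk2 and Elk4 no longer passed (adjusted p = 0.0639, 0.0504, 0.0571 and 0.143). Under cyclic loess Mapkapk2 and Elk4 no longer passed (0.0526 and 0.11). The count was 8 without KO replicate 3, WT replicate 1 or WT replicate 2, and 7 without WT replicate 4.

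The upstream list of kinases and their target factors held 23 genes, of which 6 fell, with a median of -0.18. Creb1, which encodes CREB, stood at 9.51, 9.44 and 9.28 on the KO arrays and at 10.25, 9.95, 10.19 and 10.30 on the WT arrays. The groups were separate, and the log2 change was -0.76 (limma adjusted p = 0.00543). Another Creb1 probe set was at -0.35 (adjusted p = 0.0447), and the 4 others, 3 of them under the level of 5.47, were between 0.01 and 0.03.

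Crem, a CREB relative, fell by 0.74 on the log2 scale, from WT values of 7.45, 7.52, 7.86 and 7.76 to KO values of 6.78, 7.03 and 6.92 (adjusted p = 0.0087). Atf2, which pairs with Jun, fell by 0.30 (adjusted p = 0.0155), and its other probe sets ranged from -0.95 to 0.22. At the brightest probe set, the calls of Creb1, Crem and Atf2 held whichever array was left out. Mapkapk2, a kinase downstream of p38, was at -0.92 (adjusted p = 0.0385), Mrtfa, a coactivator of SRF, at -0.74 (0.0315) and Elk4, an ETS partner of SRF, at -0.21 (0.0392). These last 3 calls were fragile: leaving out any 1 of 6 arrays ended that of Mapkapk2, any 1 of 5 that of Mrtfa and any 1 of 7 that of Elk4 (adjusted p up to 0.099, 0.0842 and 0.0991). Mapk8, which encodes the kinase JNK1, had the largest change among the rest, at -0.37 (adjusted p = 0.373). The other probe sets of Elk4 were between 0.00 and 0.11.

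Among 29 related transcription factors 4 fell, with a median of -0.14. Klf6 went from 10.85, 10.80, 10.88 and 10.88 in WT to 10.44, 10.47 and 10.42 in KO lungs (log2 change -0.41, limma adjusted p = 0.00523). Klf4, a factor of epithelium and endothelium, went from 12.23, 12.26, 12.29 and 12.20 to 11.39, 11.76 and 11.73 (-0.62, adjusted p = 0.0084). Both were tightly grouped in WT lungs and separate from the KO lungs. Mafg, a small Maf protein, was at -0.50 (0.0114), and Fosl2, a Fos relative, at -0.34 (0.019). Fosl2 lost its call without WT replicate 1, 3 or 4 (adjusted p up to 0.0558), and its other probe set was at 0.12. Klf2, a flow-responsive endothelial factor, did not pass at -0.64 (adjusted p = 0.059), although its groups did not overlap.

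Of 18 other early products 1 fell, the small GTPase Rhob, from 12.36, 12.45, 12.21 and 12.29 in WT to 11.85, 11.72 and 11.92 in KO lungs (-0.50, limma adjusted p = 0.0091). Ptgs2, the inducible cyclooxygenase, was at 0.43 and did not pass (adjusted p = 0.122). Of 27 feedback and mRNA decay factors 2 fell. Dusp6, a phosphatase of ERK, was at -0.40 (adjusted p = 0.0288) and the stress sensor Gadd45a at -0.35 (0.038), and leaving out any 1 of 5 arrays ended the call of Dusp6 and any 1 of 6 that of Gadd45a. Socs3, a cytokine-induced inhibitor of JAK kinases, was at 0.56 (adjusted p = 0.122), and passed without WT replicate 3 (0.75, adjusted p = 0.0371).

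Of 14 genes of the BTG and TOB family and of p53 targets, 0 passed with limma. An unadjusted limma p under 0.05 was found for 3 of them and for 41 of all 111 related genes. Such values were common in these data. In a fit with 1 probe set per gene above the level of 5.47, 4622 of 13285 genes had one. So did 38 of the 103 related genes in that fit. The counts of related genes were not tested against the count over all genes. Btg1, the closest relative of Btg2, was at 0.06 (adjusted p = 0.497); it was named after its value was seen. The p53 target Cdkn1a, an inhibitor of cyclin-dependent kinases, was at -0.63 (adjusted p = 0.19), with KO replicate 1 at 10.75 among WT arrays at 10.34 to 11.05. It passed without KO replicate 1 (-1.005, adjusted p = 0.0306), and its other probe set passed on all arrays (-1.10, adjusted p = 0.0362).

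**Figure D5:**
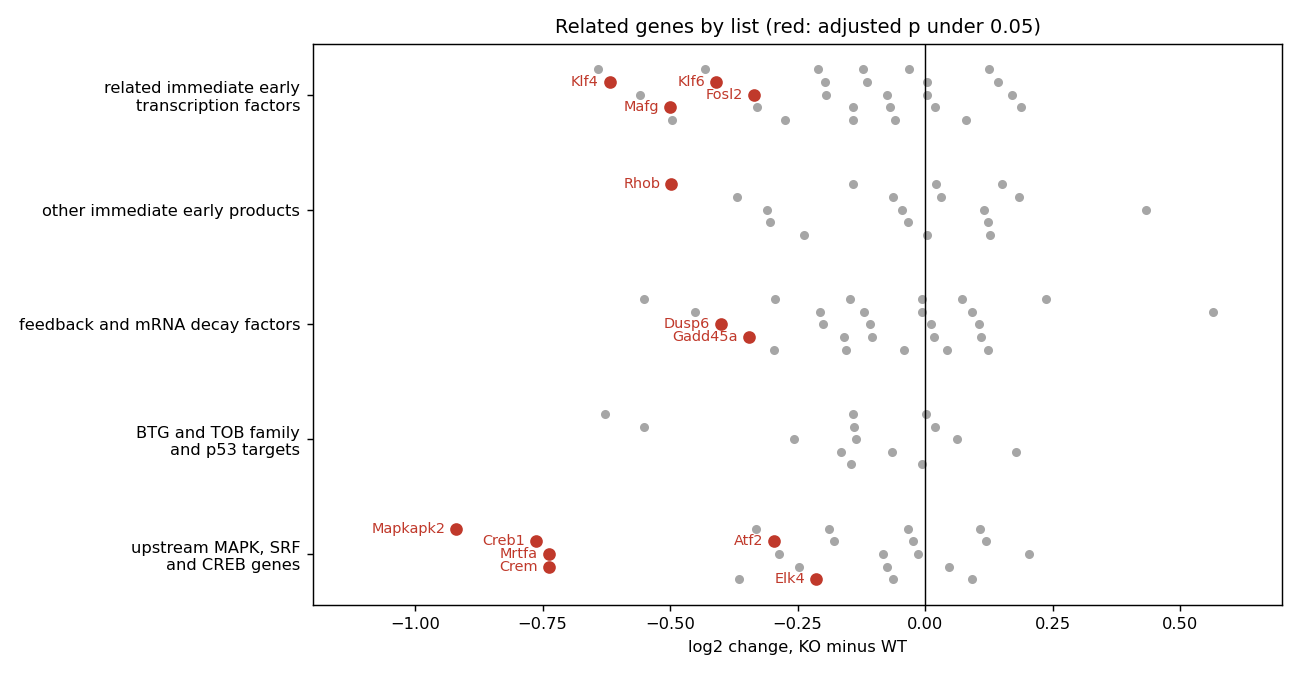
Log2 change (KO minus WT) of each of the 111 related genes, 1 point per gene at its brightest probe set, by list; vertical offsets only separate points, and red marks an adjusted p under 0.05. The 13 red points all lie below 0, with 6 of them in the upstream list.

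With either RNA quality covariate, or with only the 5 mice that carry the lowest identity numbers (3 KO and 2 WT), limma called 0 of the 12 member probe sets and 0 of the 111 related genes at an adjusted p under 0.05. Over all 45037 probe sets these fits called 0 with beta-actin, 13 with Gapdh and 0 in the 5 mice. The counts of 0 are therefore not particular to the members or the related genes. At an unadjusted limma p under 0.05 there were 3 member probe sets with the beta-actin covariate, 4 with the Gapdh covariate and 4 among the 5 mice. The same fits gave 20, 29 and 32 related genes. Over all 45037 probe sets, 7989, 7714 and 8007 were under that threshold in these fits. The counts of members and related genes were not tested against these. Among those 5 mice the log2 changes were -0.82 and -0.33 for Btg2, -0.65 and -0.18 for Jun, 0.46 for Fos and 1.04 for Egr1. The 2 mice outside that range were both WT.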

How the data were processed

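Total RNA of 7 left lungs was labelled and hybridised to 1 array each. The deposited value table holds log2 levels for 45101 probe sets. The submitters' processing notes name Affymetrix Expression Console, RMA and MAS5 and no versions. Which of them made the table, and its background correction, is not stated in them, and the log2 scale was read from the range of the deposited values. The 64 control probe sets were left out of the tests. Of the others, 34945 carry 1 gene symbol in the platform annotation, 932 several and 9160 none, and 34741 were named by gene identifier through RefSeq.

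limma 3.58.1 in R 4.3.3 was fitted to the deposited log2 values of all 45037 probe sets without a level filter, KO against WT, with Benjamini-Hochberg adjustment over all and a threshold of 0.05. It was tested on simulated data. Where a gene has several probe sets, the brightest over the 7 arrays stands for it outside the members. The spread within groups is the residual SD of that fit, given as a description. Intervals are 95% intervals of limma. Arrays have no read depth, and their number limits the precision. Named related genes are those past the threshold and the largest other change in each list. Same-numbered KO and WT arrays did not deviate together, so no block was used. Alternatives were the level filter at 5.47, 1 probe set per gene, 3 scalings, a trended robust prior, array weights, both RNA quality covariates, the replicate block, the 5 mice with the lowest numbers, and each array left out. The members and lists were chosen with earlier results of these data known.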

Additional observations from a re-analysis of the deposited data

Results flagged for a closer look

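In the 4 WT arrays, 1 array stood apart from the others for 3 of the 12 probe sets, by the gap to its nearest neighbour as a share of the group's range (Dixon's critical value 0.829). For Fos this was WT replicate 4, low at 9.31 (0.860). For Egr1 it was WT replicate 3, high at 9.91 (0.911), and for Junb the same array, high at 4.99 (0.833). Chance alone gives about 1 such case in 20 groups, and 12 groups were examined. The 3 KO arrays are too few for this measure.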

How the results depend on the processing

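The 4456 calls over all probe sets became 2069 with 1 probe set per gene above the level filter, 0 with the beta-actin covariate (7989 at an unadjusted p under 0.05), 13 with the Gapdh covariate, 1322 with the replicate block, 0 in the 5 mice (8007 at an unadjusted p under 0.05) and 1974 to 4251 with 1 array left out. The 3 member calls became 1 of 8 tested with 1 probe set per gene, 0 with either covariate or in the 5 mice by limma, and 2 to 3 with 1 array left out. The 13 related genes became 0 with either covariate or in the 5 mice, 5 with the replicate block and 7 to 13 with 1 array left out. With the block Btg2 1448272_at was not called (-0.287, adjusted p = 0.118). Same-numbered arrays correlated at 0.09, -0.10 and 0.04, and none was best matched to its own number. Both covariates separated KO from WT arrays without overlap, so those fits cannot tell RNA quality from genotype. The cause of these changes in the counts was not tested.

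Changes that turned sign were small or uncalled. Junb was at -0.071 after quantile normalization and after cyclic loess, -0.028 after centring, -0.006 with Gapdh, -0.010 with the block, and -0.035 to 0.030 with 1 array left out. Atf3 was at 0.037 after quantile normalization, 0.015 after cyclic loess, 0.053 in the 5 mice and -0.165 to 0.140 with 1 array left out. It moved furthest with the covariates, to -0.510 and -0.553 without turning sign. Fos was at -0.306 with beta-actin and -0.063 with Gapdh, Egr1 at -0.454 and -0.456, and Jun 1448694_at at 0.039 with Gapdh. The median spread of the members stayed between 0.129 and 0.162.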

Other observations

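WT replicate 3, which was highest among WT lungs for Egr1 and Atf3, was also highest for Hspa1b, an inducible heat shock protein, at 12.75 against 11.75, 11.00 and 11.84 on the other WT arrays. The KO arrays stood at 9.96, 10.09 and 10.19 for Hspa1b, below all WT arrays, whereas for Egr1 and Atf3 the KO and WT arrays overlapped. Hspa1b was looked at with earlier results of these data known, and no relation between these genes was tested.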
